A study of Mus musculus with 6 samples.

Results

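Nuclei of cardiac fibroblasts led by Postn, Cilp, Thbs4 and Comp were examined in single-nucleus RNA sequencing of the mouse left ventricle. Fibroblasts build and renew the connective tissue between heart muscle cells. When the heart is injured or overloaded, some of them become activated: they make more fibrillar collagen and a set of matrix proteins that are scarce in the resting heart, and part of them take on contractile fibres. Periostin (Postn), a secreted matrix protein, cartilage intermediate layer protein (Cilp), thrombospondin 4 (Thbs4) and cartilage oligomeric matrix protein (Comp) are such genes. Transforming growth factor beta (TGF-beta) is the best known signal for this state.

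The data held 6 libraries in 3 groups of male mice aged 12 weeks, with n = 2 libraries in each group. WT-CD mice were wild type littermates on a control diet (CD). R403Q-CD mice had the same diet and carried the genotype labelled Myh6+/R404Q (R403Q), a change of the cardiac myosin heavy chain that serves as a model of hypertrophic cardiomyopathy. R403Q-EMPA mice carried the same allele and had that diet with 0.15 mg/g of empagliflozin (EMPA), an inhibitor of the sodium-glucose cotransporter SGLT2. The mutation is in a gene of heart muscle cells, so that fibroblasts were not its direct site.

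Of 69249 barcodes, 48438 had at least 500 unique molecular identifiers (UMIs, counted RNA molecules), at least 300 genes and at most 5% of UMIs from mitochondrial genes. Of these, 15135 were fibroblast nuclei. They had 3 or more UMIs of Pdgfra, Dcn, Abca8a and Col8a1 together and at most 1 UMI of Pecam1, Cdh5 and Rgs5 together. Less than 1% of their UMIs came from Ttn, Ryr2 and Myh6. A nucleus was a member if the UMIs of Postn, Cilp, Thbs4 and Comp together (D UMIs) were 2 or more and were above each of 3 other sums, named A (Kcnip1, Necab1, Tenm4, Tll2, Col26a1), B (Gfpt2, Has2, Cd248, Adgrd1, Duox1) and C (Nkain2, Fbn2, Pappa, Fgf10, Vit). There were 463 members: replicates 1 and 2 held 65 and 37 of WT-CD, 28 and 39 of R403Q-CD, and 240 and 54 of R403Q-EMPA. More of the members came from R403Q-EMPA replicate 1 than from the other 5 libraries together, so that pooled values lean on it. The other 14672 fibroblast nuclei served as the comparison, among them 2918 A-led, 3607 B-led and 3052 C-led nuclei.

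The D genes chose the members, so that their levels and the share of members are given as a description without a test. To show what the D genes look like upstream of the transcript, the 250 bases before the annotated start of Postn and Thbs4 were taken from RefSeq (GRCm38.p6), both written on the gene's own strand. The Postn window lies at chr3:54360857-54361106 (plus strand) and the Thbs4 window at chr13:92794819-92795068 (minus strand). Capitals mark the core promoter motif TATAAA in Postn, 26 to 21 bases before the start, and 2 overlapping copies of CATTCC, the motif of TEAD factors, in Thbs4, 197 to 192 and 192 to 187 bases before it.
Postn: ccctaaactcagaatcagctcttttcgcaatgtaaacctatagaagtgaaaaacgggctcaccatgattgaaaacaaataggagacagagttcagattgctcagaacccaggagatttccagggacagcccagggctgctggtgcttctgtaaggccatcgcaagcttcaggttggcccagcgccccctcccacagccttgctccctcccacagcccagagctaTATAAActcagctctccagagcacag
Thbs4: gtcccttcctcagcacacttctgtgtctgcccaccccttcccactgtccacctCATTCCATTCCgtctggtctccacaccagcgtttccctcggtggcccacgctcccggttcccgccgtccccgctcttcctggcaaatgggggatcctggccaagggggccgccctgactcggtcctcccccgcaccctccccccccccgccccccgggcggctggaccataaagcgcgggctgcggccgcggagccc
On both strands, TATAAA occurred in 12.4% of 32851 such windows and CATTCC in 12.6%, so that either match is common. The motifs TGANTCA (6.75% of windows) and the serum response element CArG (1.47%) were not found in these windows, nor was any of the 4 in the Cilp window (chr9:65264930-65265179, plus strand) or in a second Postn window (chr3:54359017-54359266, plus strand).

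Most members carried few D UMIs. The median was 6 D UMIs (3 and 4 in the WT-CD libraries, 3 and 6 in those of R403Q-CD, 9 and 7.5 in those of R403Q-EMPA), 85 members sat at the threshold with exactly 2, and 168 had 10 or more (9 and 8 in WT-CD, 5 and 11 in the R403Q-CD libraries, 116 and 19 in R403Q-EMPA). The highest count was 205, in R403Q-EMPA replicate 1. Just outside the rule were 167 nuclei with 1 D UMI and no UMI of the other sums, and 217 nuclei with 2 or more D UMIs that were not above A, B and C. The 217 numbered 26 and 20 in WT-CD, 24 and 21 in the R403Q-CD libraries, and 113 and 13 in R403Q-EMPA. Both sets were counted among the other fibroblast nuclei.

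The members were not all fibroblasts by their markers. In 71 of the 463, at least 0.3% of UMIs came from 9 pericyte markers, genes of the mural cells that wrap capillaries, and these are called pericyte-marked. In these 71 nuclei Abcc9 and Pdgfrb each had a UMI in 97.2%, Notch3 in 84.5% and Kcnj8 in 70.4%, whereas Dcn had one in 50.7%, Col1a1 in 15.5% and Pdgfra in 9.86%. Postn was present in 98.6% of them, but Cilp in 2 nuclei, Thbs4 in 1 and Comp in 1. Of the markers that the fibroblast rule counts, Abca8a gave 417 UMIs in these nuclei, Dcn 104, Col8a1 96 and Pdgfra 13.

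Of the other 392 members, 83.4% had a UMI of Col1a1, a fibroblast gene that neither the rule nor the pericyte limit used. Dcn was in 99.5% of them, Col8a1 in 94.1% and Pdgfra in 74.2%, but the rule counts these genes. Tcf21, a transcription factor of fibroblasts, was in 13.5%, slightly more often than in the other fibroblast nuclei. Abcc9 had a UMI in 6.89% of them and Higd1b in 0, and both are among the 9 markers of the limit. Genes shared with pericytes were not all scarce. Pdgfrb had a UMI in 56.4% of these members and Ednra in 25.8%, against 40.3% and 10.3% of the other fibroblast nuclei. Notch3 and Kcnj8 went the other way, with 9.95% and 1.79% against 13.5% and 5.56%. The 9 pericyte markers fell into separate ranges, with 367 members under 0.1% of UMIs, 67 at 0.4% or more and 4 on each side within 0.1 percentage points of the limit. The limit was set after the values were seen.

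**Figure D1:**
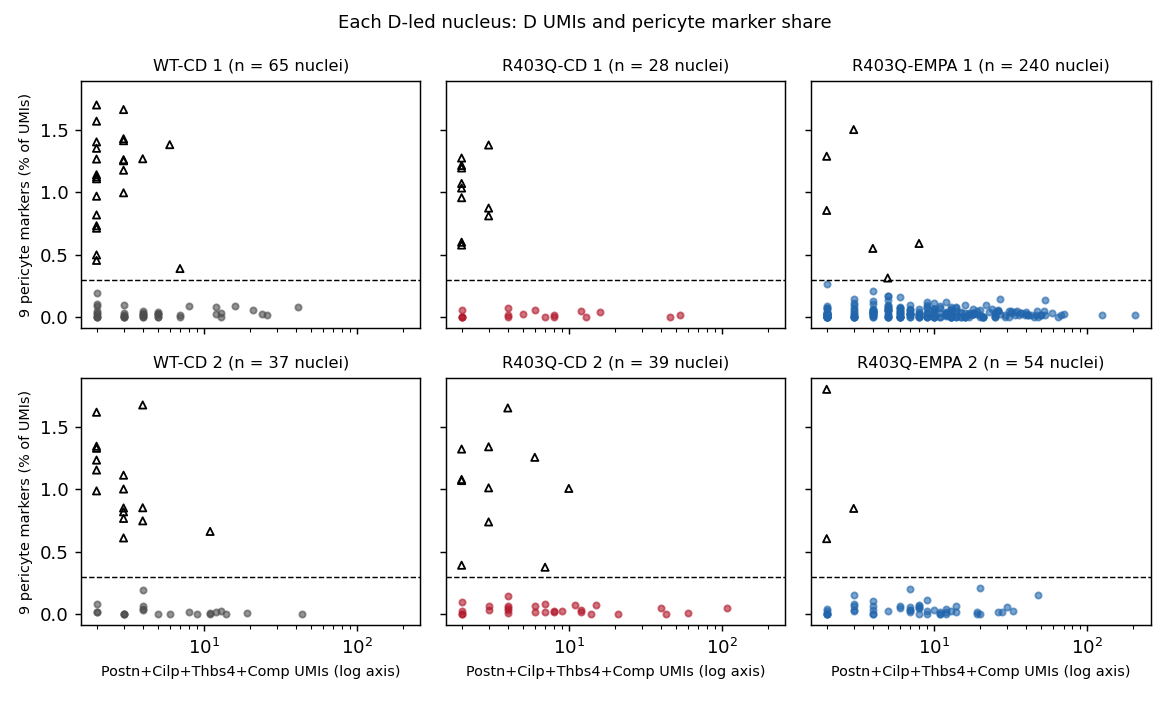
Each point is 1 D-led nucleus, with the UMIs of Postn, Cilp, Thbs4 and Comp on a log axis against the percentage of its UMIs from 9 pericyte markers, in 1 panel per library. Open triangles above the dashed line (0.3%) are the 71 pericyte-marked nuclei, 24, 16, 11, 11, 6 and 3 by library, and most of them have 2 or 3 D UMIs.

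Pericyte-marked nuclei were unevenly spread over the groups. They made up 36.9% and 43.2% of members in WT-CD, 39.3% and 28.2% in the R403Q-CD libraries, and 2.50% and 5.56% in R403Q-EMPA. Among the other fibroblast nuclei the same criterion took 5.19% and 3.57%, 4.09% and 3.56%, and 1.69% and 3.05%. Of the 392 others, 132 had UMIs of Postn alone among the D genes. Postn did not lead in every member: of all 463, 327 had more UMIs of Postn than of each other D gene, and 54 had none of Postn. All are therefore called D-led nuclei here, after the rule. Values are with all members unless stated, and those without the pericyte-marked nuclei are named as such.

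D-led nuclei were a small share of fibroblast nuclei in 5 of the 6 libraries. They made up 1.57% (95% Wilson interval 1.24 to 2.00) and 1.34% (0.977 to 1.85) in WT-CD, 1.09% (0.754 to 1.57) and 1.89% (1.39 to 2.58) in the R403Q-CD libraries, and 14.4% (12.8 to 16.2) and 2.76% (2.13 to 3.59) in R403Q-EMPA. The group means were 1.46% ± 0.161 (SD, n = 2), 1.49% ± 0.568 and 8.59% ± 8.24. WT-CD and R403Q-CD overlapped, and both R403Q-EMPA libraries were above them, R403Q-EMPA replicate 1 by far. Without pericyte-marked nuclei the means were 0.924% ± 0.181, 1.05% ± 0.511 and 8.51% ± 8.22. The intervals cover counting error only, and nothing in the labels says whether the 2 libraries of a group came from separate hearts.

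The shares were also taken at equal depth, since members had a median of 4643 UMIs and other fibroblast nuclei 3424. With each nucleus thinned to 1500 UMIs, which left out 33 to 220 shallower fibroblast nuclei per library, the shares were 0.997% and 0.809% in WT-CD, 0.518% and 0.943% in the R403Q-CD libraries, and 10.7% and 2.42% in R403Q-EMPA. R403Q-EMPA replicate 1 remained well above the other libraries.

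Free RNA in the droplets puts some UMIs into every nucleus, so that the same D condition was applied to endothelial nuclei, with at least 3 UMIs of Pecam1 and Cdh5 and at most 1 of the fibroblast markers. It was met by 2.28% and 0.637% of endothelial nuclei in WT-CD, 1.43% and 1.70% in the R403Q-CD libraries and 1.44% and 1.36% in R403Q-EMPA. At 1500 UMIs these were 1.11%, 0.118%, 0.448%, 0.321%, 0.731% and 0.684%, and the fibroblast shares without pericyte-marked nuclei were 0.567%, 0.422%, 0.416%, 0.775%, 10.6% and 2.33%, in the same order. In WT-CD replicate 1 and R403Q-CD replicate 1 the fibroblast share was thus below the endothelial one. At 1000 UMIs it was above it in every library, with 0.441% against 0.313% and 0.449% against 0.0625% in those 2, so that the order in them depends on the depth chosen. Without thinning, R403Q-CD replicate 2 was below its endothelial share too (1.41% against 1.70%), and in WT-CD replicate 2 the intervals overlapped (0.796%, 0.521 to 1.21, against 0.637%, 0.356 to 1.14). At 1000 UMIs R403Q-CD replicate 2 stood at 0.762% (0.462 to 1.25) against 0.126% (0.0346 to 0.459). Which share was higher in the WT-CD and R403Q-CD libraries thus depended on the depth, except in WT-CD replicate 2, and how much of these shares is background was not settled. The condition is also not equal for both kinds of nuclei, since D had to be above A, B and C, which are sums of genes taken from fibroblast states. In both R403Q-EMPA libraries the fibroblast share was above the endothelial one at each depth. Endothelial nuclei are an imperfect background for Comp, which had a UMI in 1.36% to 4.65% of them, by library, whereas the 14672 other fibroblast nuclei held 69 Comp UMIs in all.

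**Figure D2:**
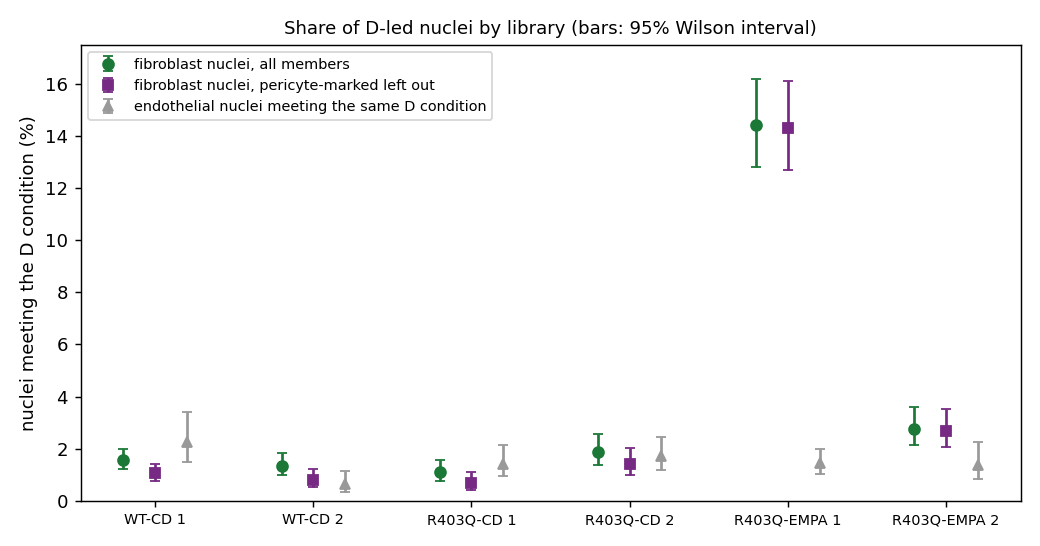
The percentage of nuclei that met the D condition is drawn for each library, with 95% Wilson intervals, among fibroblast nuclei with all members (circles), without pericyte-marked nuclei (squares) and among endothelial nuclei (triangles). R403Q-EMPA replicate 1 stands at 14.4% and replicate 2 at 2.76%, and the other 4 libraries lie between 1.09% and 1.89%, close to the endothelial values.

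Postn UMIs outside the members were more frequent in R403Q-EMPA replicate 1 too. At least 1 Postn UMI was found in 6.26% of endothelial nuclei in that library, against 0.927% to 2.17% in the other 5 libraries. Among the other fibroblast nuclei it was found in 17.8%, against 1.95% to 4.55%. The part of free RNA in the share of 14.4% was not tested. The share of endothelial nuclei that met the D condition there, 1.44%, was within the range of the other libraries.

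The 4 D genes did not contribute equally. Postn (ENSMUSG00000027750) was at 1161 and 1164 CPM (UMIs of a gene, scaled to the same total in every sum of nuclei after TMM normalisation) in members of WT-CD, 1358 and 1803 CPM in R403Q-CD, and 1849 and 1353 CPM in R403Q-EMPA. Cilp (ENSMUSG00000042254) was at 309.5 and 195 CPM, 403.3 and 175 CPM, and 354 and 403.03 CPM. Postn was lower in both WT-CD libraries than in the other 4, where the ranges of the 2 groups overlapped, and for Cilp the R403Q-CD range spanned that of WT-CD. Thbs4 (ENSMUSG00000021702), in contrast, was at 21.5 and 17.7 CPM in WT-CD, 41.2 and 26.2 CPM in R403Q-CD, and 382 and 408 CPM in R403Q-EMPA. Comp (ENSMUSG00000031849) was at 68.8 and 17.7 CPM, 0 and 21.8 CPM, and 91.8 and 408 CPM.

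Thbs4 separated R403Q-EMPA from the other groups without overlap, while Comp was high in R403Q-EMPA replicate 2 alone. The Thbs4 levels of the first 4 libraries rested on 3 to 6 UMIs each. Without pericyte-marked nuclei, Thbs4 had a UMI in 9.76% and 14.3% of members in WT-CD, 11.8% and 7.14% in the R403Q-CD libraries, and 29.5% and 37.3% in R403Q-EMPA. Since Thbs4 is in the rule, this is a description without a test. Of these 392 members, 176 had UMIs of 1 D gene (132 of them of Postn alone), 138 of 2, 56 of 3 and 22 of all 4, and 17 of the 22 were in R403Q-EMPA replicate 1.

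All other genes were then compared between members and the other fibroblast nuclei of the same library, to ask what goes with the D genes. UMIs were summed per library and state, and edgeR's quasi-likelihood test was run with the library as a block. The genes of the rule were not tested. Because nuclei were selected for the 4 D genes and against the 15 genes of A, B and C, genes that go with any of these within nuclei had to differ, and an adjusted p says only that a difference repeated over libraries. Of 12548 genes, 599 (4.77%) were higher and 592 (4.72%) lower in members at an adjusted p under 0.05, which is 9.49% in all. Without pericyte-marked nuclei, 512 of 12359 (4.14%) were higher and 666 (5.39%) lower, 9.53% in all. In both fits 946 genes were called, 940 of them in the same direction. Of the genes called in both, 227 were higher and 425 lower in 6 of 6 libraries.

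The 15 called genes with the largest differences included Ltbp2 and Piezo2. Ltbp2 (ENSMUSG00000002020), a protein of elastic microfibrils, was at 245 and 260 CPM in WT-CD members, 222 and 266 CPM in R403Q-CD and 715 and 446 CPM in R403Q-EMPA. In the other fibroblast nuclei it was at 8.50, 13.1, 6.73, 15.5, 85.5 and 12.8 CPM, so that every member value was above every other value. Its log2 fold change was 4.24 ± 0.20 (SE), with an adjusted p of 2.1e-16, and 4.42 without pericyte-marked nuclei. Piezo2 (ENSMUSG00000041482), a mechanically gated ion channel, was at 215, 213, 230.5, 271, 561 and 379 CPM in members, in the same order of libraries, and at 6.21 to 90.1 CPM in the others. Its log2 fold change was 4.10 ± 0.22, and 4.29 without pericyte-marked nuclei. Both genes were over 80 CPM outside the members in R403Q-EMPA replicate 1 only.

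Atp6v0a4, a subunit of the vacuolar proton pump, was at 41.2 to 163 CPM in members and at 2.63 to 14.2 CPM in the others. Col12a1 (ENSMUSG00000032332), a collagen that binds to the surface of collagen fibrils, was at 30.1 and 11.8 CPM in WT-CD members, 206 and 100.4 CPM in R403Q-CD, and 122 and 249 CPM in R403Q-EMPA, against 3.16 to 13.1 CPM in the others. It was thus lower in WT-CD members than in those of both R403Q groups. The log2 fold changes were 4.29 ± 0.24 for Atp6v0a4 and 4.01 ± 0.34 for Col12a1, with adjusted p-values of 8.81e-15 and 1.18e-10. Both genes were also called without pericyte-marked nuclei, Atp6v0a4 with 4.49.

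Secreted factors and matrix genes followed. Prg4, the lubricating proteoglycan lubricin, was at 77.4 and 106 CPM in WT-CD members, 165 and 266 CPM in R403Q-CD and 333 and 451 CPM in R403Q-EMPA (log2 fold change 3.46 ± 0.22). Dkk3, a secreted Dickkopf family protein, was at 88.6 to 341 CPM (3.26 ± 0.21). For Prg4 the 3 groups of members did not overlap in level, but the levels in the other fibroblast nuclei, 8.73 to 56.5 CPM, were also highest in R403Q-EMPA. Frem1, a basement membrane protein, was at 21.5 to 206 CPM in members (2.89 ± 0.26). Crispld1 and Wipf3 had log2 fold changes of 3.71 ± 0.23 and 3.10 ± 0.24. Without pericyte-marked nuclei the log2 fold changes were 3.63 for Prg4, 3.41 for Dkk3, 3.05 for Frem1, 3.88 for Crispld1 and 3.28 for Wipf3.

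Ccn2 (ENSMUSG00000019997), connective tissue growth factor, was at 666 and 561 CPM in WT-CD members, 412 and 336 CPM in R403Q-CD and 847 and 672 CPM in R403Q-EMPA. In the other fibroblast nuclei it was at 44.0 to 193 CPM, below all members. The log2 fold change was 2.74 ± 0.13, and 2.98 without pericyte-marked nuclei. Meox1, a homeobox transcription factor of activated cardiac fibroblasts, was at 21.8 to 149 CPM in members and 5.75 to 25.6 CPM in the others (3.09 ± 0.27, and 3.27 without pericyte-marked nuclei). Egr3, an immediate early transcription factor, was at 47.3 to 107 CPM in members (2.64 ± 0.28, and 2.83 without pericyte-marked nuclei).

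Another 2 of the 15 highest genes went with the pericyte-marked nuclei. Pde8b, a phosphodiesterase, was at 284 and 425 CPM in WT-CD members, 494 and 327 CPM in R403Q-CD, and 31.8 and 106 CPM in R403Q-EMPA, with a log2 fold change of 2.82 ± 0.21. Without pericyte-marked nuclei this was -0.17 ± 0.65, with an adjusted p of 0.95. For Cspg4, a proteoglycan of pericytes, it was 2.63 ± 0.27 and then 1.43 ± 0.48 (adjusted p = 0.043).

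**Figure D3:**
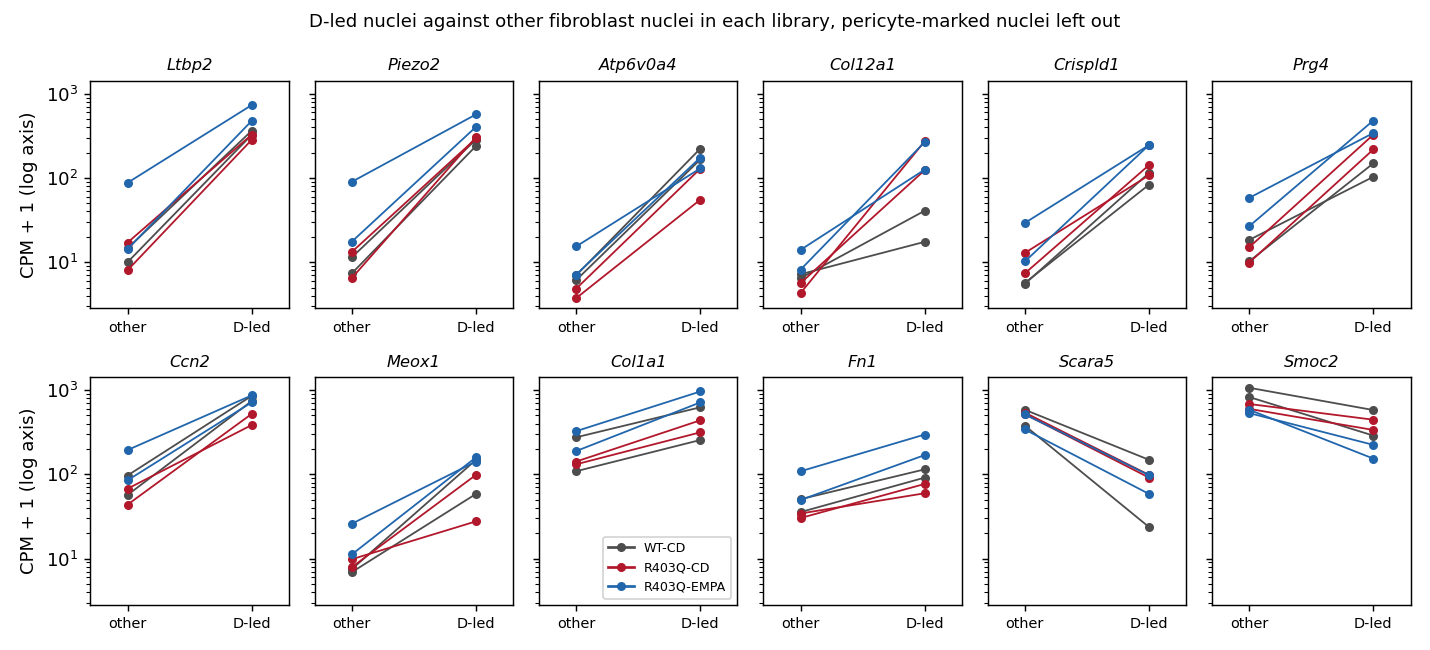
For 12 genes, CPM plus 1 (log axis) is drawn in the other fibroblast nuclei and in D-led nuclei without pericyte-marked nuclei, with 1 line per library coloured by group. The first 10 genes rise in every library and Scara5 and Smoc2 fall in every library, and the upper blue line in the left position of several panels is R403Q-EMPA replicate 1.

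Lower genes include those that go with A, B or C, since members were chosen with lower sums of these. Grm8, a glutamate receptor, had at most 8.73 CPM in members and 10.9 to 144 CPM in the others (log2 fold change -4.64 ± 0.40). Mme (neprilysin) was at 0 to 41.3 CPM in members and 92.6 to 236 CPM in the others (-3.39 ± 0.23). Lvrn, another membrane peptidase, was at 12.6 to 214 CPM against 245 to 749 CPM (-3.18 ± 0.23). For each of these 3 genes, all member values were below all other values. Scara5 (ENSMUSG00000022032), a ferritin receptor of adventitial fibroblasts, was at 25.8 and 112 CPM in WT-CD members, 74.1 and 91.7 CPM in R403Q-CD and 56.3 and 91.2 CPM in R403Q-EMPA. In the others it was at 335 to 561 CPM. Its log2 fold change was -2.63 ± 0.14, and -2.54 without pericyte-marked nuclei. Ret, Il1rapl1, Ifi205, Acss3, A830012C17Rik and Gm4956 lay between -3.18 and -2.68, and all were called without pericyte-marked nuclei too.

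Collagen lists were next, to see whether the members have the matrix genes of fibroblast activation. Of 9 tested fibrillar collagens, 5 were higher and 0 lower in members, with a median log2 fold change of 0.76 beside -0.03 over all genes. Without pericyte-marked nuclei it was 4 of 8. Col1a1 (ENSMUSG00000001506), a chain of type I collagen, was at 481 and 207 CPM in WT-CD members, 247 and 362 CPM in R403Q-CD, and 955 and 672 CPM in R403Q-EMPA. In the other fibroblast nuclei it was at 263 and 104, 126 and 137, and 321 and 184 CPM, so that members were higher in each library (1.33 ± 0.12, and called without pericyte-marked nuclei too). Col3a1 had a log2 fold change of 0.76 ± 0.10 and Col5a2, a chain that sets fibril diameter, 0.89 ± 0.11. Of 10 other collagens 7 were higher and 1 lower (6 and 1 of 9 without pericyte-marked nuclei), among them Col14a1, a fibril-associated collagen, with 1.08 ± 0.15. Col6a6, a type VI chain, was the lower one, with 36.3 to 113 CPM in members against 236 to 547 CPM (-2.52 ± 0.14).

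Basement membrane genes went both ways. Of 16 tested, 7 were higher and 5 lower with all members, and 8 and 5 without pericyte-marked nuclei. Col4a3 had a log2 fold change of 1.10 ± 0.12, while the laminin chains Lamb1 and Lamc1 fell by 1.20 ± 0.14 and 0.93 on the log2 scale. Of 25 collagen modification and crosslinking genes, 4 were higher and 3 lower (4 and 2 without pericyte-marked nuclei). P3h2, a collagen prolyl hydroxylase, was at 64.5 and 136 CPM in WT-CD members, 123 and 192 CPM in R403Q-CD and 267 and 341 CPM in R403Q-EMPA, against 22.8 to 52.5 CPM (2.52 ± 0.19). Loxl2, a crosslinking enzyme, had 0.95 ± 0.15. The share called in this list, 7 of 25, stands beside 9.49% over all genes.

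Of 32 matricellular and fibril-associated genes, 10 were higher and 8 lower, and 14 and 8 without pericyte-marked nuclei. Fn1 (fibronectin) was at 125 and 142 CPM in WT-CD members, 123 and 96.0 CPM in R403Q-CD and 297 and 163 CPM in R403Q-EMPA, against 32.8 to 109 CPM in the others. Its log2 fold change was 1.59 ± 0.15. The microfibril proteins Mfap5 and Mfap4 had 1.52 ± 0.11 and 2.12 ± 0.27, Thbs1 had 1.60 ± 0.19 and tenascin C (Tnc) had 2.39 ± 0.58. Tnc rested on few molecules, with 0 to 43.2 CPM in members. Thbs2, the paralogue of Thbs1, went the other way, at 17.7 to 86.4 CPM in members against 96.6 to 233 CPM (-1.64 ± 0.21). Efemp1 (fibulin 3) had -2.62 ± 0.22.

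Proteoglycans, proteases and inhibitors followed. Of 16 proteoglycans 4 were higher and 2 lower, among the former Bgn (biglycan), with 1.04 ± 0.10, and Vcan (versican), with 1.11 ± 0.10. Without pericyte-marked nuclei 5 were higher and 4 lower. Of 31 proteases and inhibitors, 7 were higher and 13 lower, and then 6 and 13 of 30. The inhibitor of metalloproteinases Timp1 was at 12.9 and 17.7 CPM in WT-CD members, 16.5 and 30.6 CPM in R403Q-CD, and 105 and 19.2 CPM in R403Q-EMPA, against 1.28 to 21.7 CPM (2.62 ± 0.35). Within each library, members were above the others. Adamts5, an aggrecan-degrading protease, had -1.66 ± 0.15, Mmp3 (stromelysin) had 2 UMIs or fewer in the members of each library, and Fap, a membrane protease often used as a marker of activated fibroblasts, was lower in members (-0.58 ± 0.12, and -0.98 without pericyte-marked nuclei).

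Contractile and adhesion genes showed how the pericyte-marked nuclei bear on a list. With all members, 17 of 26 were higher and 0 lower (median log2 fold change 0.48), and without pericyte-marked nuclei 13 were higher and 1 lower (median 0.45). Tagln (transgelin) had 2.72 ± 0.49 and then 2.78 ± 0.52, and Actn1 (alpha-actinin 1) 1.56 ± 0.19 and then 1.46 ± 0.22. Vcl (vinculin) had 0.94 ± 0.12 and 0.67 ± 0.14, and Myh9 (nonmuscle myosin) 0.79 ± 0.12 and 0.54 ± 0.14. These 4 genes were called in both fits. Mylk, the kinase of myosin light chain, dropped from 1.40 ± 0.23 to 0.13 ± 0.37 (adjusted p = 0.92) and Tpm2 from 1.19 ± 0.27 to 0.68 ± 0.34 (adjusted p = 0.27). Tagln was low in absolute terms, at 8.60 to 41.2 CPM in members and 0.947 to 5.63 CPM in the others.

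**Figure D4:**
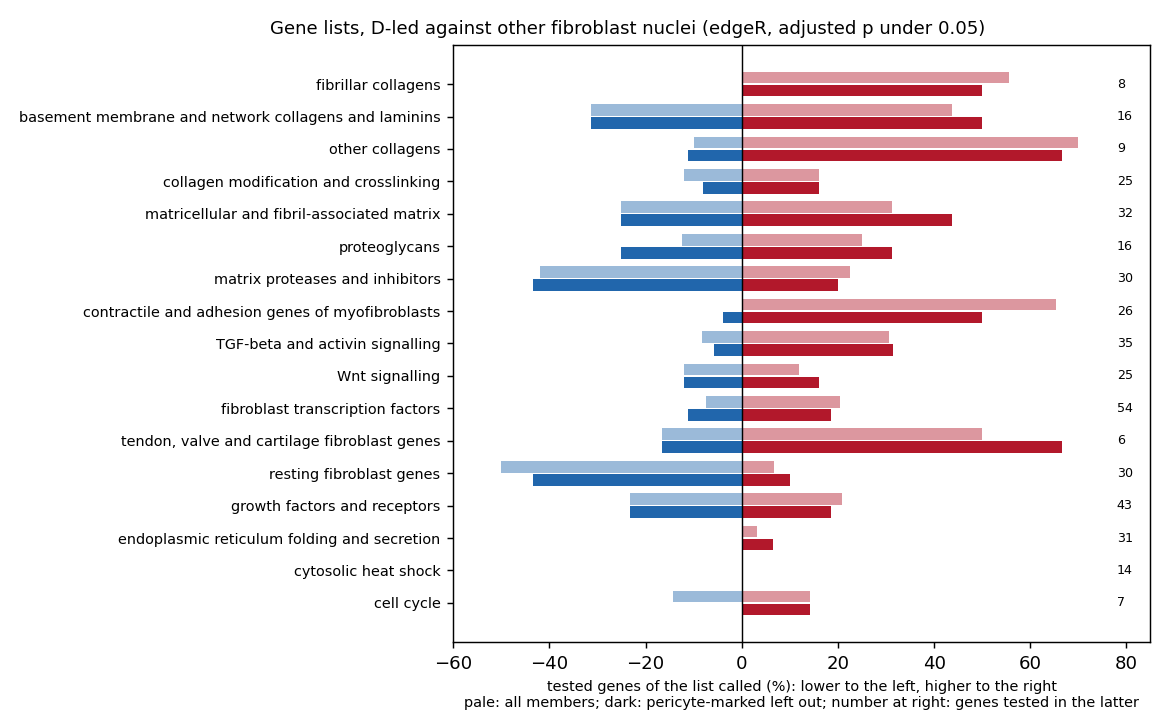
For each of 17 gene lists, bars give the percentage of tested genes that were higher (right, red) or lower (left, blue) in D-led nuclei, with all members (pale) and without pericyte-marked nuclei (dark), at an adjusted p under 0.05. Fibrillar collagens and contractile genes lie to the right and resting fibroblast genes mostly to the left, beside 4.77% higher and 4.72% lower over all genes.

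Of 36 tested TGF-beta and activin genes, 11 were higher and 3 lower, and 11 and 2 of 35 without pericyte-marked nuclei. Among ligands, Tgfb1 was at 34.4 to 133 CPM in members and 27.0 to 40.8 CPM in the others (1.24 ± 0.20), and Inhba, a subunit of activin, had 1.29 ± 0.30. Among targets and inhibitors induced by the pathway, Pmepa1 was at 331 and 301 CPM in WT-CD members, 247 and 309.9 CPM in R403Q-CD and 421 and 413 CPM in R403Q-EMPA. In the others it was at 104 to 224 CPM, and the log2 fold change was 1.19 ± 0.11. Skil, a repressor of SMAD proteins, had 0.82 ± 0.15. The coreceptor Tgfbr3 was lower (-0.54). Of 25 Wnt genes 3 were higher, among them the receptor Fzd1 (1.47 ± 0.31) and the inhibitor Nkd2 (1.54 ± 0.25), and 3 lower, among them the secreted inhibitor Sfrp1 (-0.92 ± 0.15). Without pericyte-marked nuclei 4 Wnt genes were higher and 3 lower.

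Of 54 transcription factors 11 were higher and 4 lower, and 10 and 6 without pericyte-marked nuclei. Prrx2, a homeobox factor of mesenchyme, had 2.14 ± 0.44, Egr1 1.43 ± 0.21 and Sox9, a factor of cartilage, 0.75 ± 0.20, while Zeb1 had -0.84 ± 0.10. Of 6 tested tendon, valve and cartilage genes 3 were higher and 1 lower, and then 4 and 1. Of 30 resting fibroblast genes, 15 were lower and 2 higher (median -0.69), and 13 and 3 without pericyte-marked nuclei. Smoc2, a matrix protein, was at 456 and 219 CPM in WT-CD members, 337 and 279 CPM in R403Q-CD, and 223 and 144 CPM in R403Q-EMPA, against 525 to 1024 CPM in the others (-1.34 ± 0.12). Members were lower in each library. Dpep1, a membrane dipeptidase, had -1.65 ± 0.13.

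Of 43 growth factors and receptors 9 were higher and 10 lower, and 8 and 10 without pericyte-marked nuclei. Bdnf, a neurotrophin, had 1.80 ± 0.40, and Angpt1, a ligand that stabilises vessels, -1.65 ± 0.15. The receptors Pdgfrb and Ednra are shared with pericytes: Pdgfrb dropped from 1.18 ± 0.14 to 0.25 ± 0.14 (adjusted p = 0.35) without pericyte-marked nuclei, and Ednra, the endothelin receptor, from 1.81 ± 0.18 to 0.95 ± 0.23 (adjusted p = 0.0023). Of 31 endoplasmic reticulum genes 1 was higher and 0 lower, of 15 cytosolic heat shock genes none were called, and of 7 cell cycle genes 1 was higher and 1 lower. Without pericyte-marked nuclei these were 2 and 0, none, and 1 and 0. The median log2 fold changes of the endoplasmic reticulum and heat shock lists were 0.07 and 0.06, beside -0.03 over all genes.

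Compared with each of the 3 other states separately, members were higher at 619 genes (8.16%) and lower at 481 (6.34%) of 7590 against A-led nuclei, 14.5% in all. Against B-led nuclei these were 589 (5.56%) and 467 (4.41%) of 10597, or 9.97%, and against C-led nuclei 623 (6.34%) and 613 (6.24%) of 9830, or 12.6%. Without pericyte-marked nuclei they were 593 (7.81%) and 567 (7.47%) of 7589, 491 (4.67%) and 401 (3.82%) of 10511, and 528 (5.35%) and 653 (6.62%) of 9863. Higher against each of the 3 were 311 of 7588 genes tested in all, and 262 of 7587 without pericyte-marked nuclei. The state genes differ: without pericyte-marked nuclei, the highest genes over A-led nuclei were Atp6v0a4 (6.95 ± 0.35) and Piezo2 (6.29 ± 0.24). Over B-led nuclei they were Piezo2 (4.48 ± 0.27), Crispld1 (4.10 ± 0.23) and Atp6v0a4 (4.05 ± 0.29), and over C-led nuclei Col12a1 (5.01 ± 0.37), Atp6v0a4 (4.59 ± 0.27) and Ltbp2 (4.50 ± 0.28). Atp6v0a4 was thus among the top 3 against every state. With all members Pde8b was among the top 3 against B-led (5.44 ± 0.33) and C-led nuclei (4.95 ± 0.31). Here too both sides were chosen on the D, A, B and C genes, so that genes that go with them had to differ. The lowest were Lrrtm3 against A-led (-5.52), Muc16, the mucin of mesothelium, against B-led (-4.54) and Cadm2 against C-led nuclei (-6.13).

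The groups were then compared within D-led nuclei. R403Q-CD against WT-CD shows how the mutation bears on them. Of 5286 genes tested, 0 were called by edgeR or by DESeq2 (0% of genes), and 286 had an unadjusted p under 0.05. The count of 0 depends on the setting: 3 genes were higher and 13 lower without WT-CD replicate 2, 0 and 2 without WT-CD replicate 1, 2 and 5 without R403Q-EMPA replicate 1, 2 and 3 without R403Q-EMPA replicate 2, and 2 and 10 without the filter on low counts. Without pericyte-marked nuclei, 0 of 4584 were called and 277 had an unadjusted p under 0.05, and with 1 library left out as well 0 to 5 were higher and 0 to 11 lower. The gene with the smallest p was Xkr4, at 79.9 and 71.6 CPM in WT-CD and 277 and 298 CPM in R403Q-CD (log2 fold change 1.92 ± 0.31, adjusted p = 0.11). Its ranges did not overlap, and in the other fibroblast nuclei it was at 130 and 185 against 161 and 161 CPM. Col12a1 had a log2 fold change of 2.66 ± 0.62 (adjusted p = 0.87), from 7 and 2 UMIs in WT-CD and 25 and 23 in the R403Q-CD libraries. Trpm3 (-4.37 ± 0.96), Pdgfrl (-4.29 ± 1.00) and Atp10d (-1.40 ± 0.36) were lower, each with an adjusted p of 0.87. Trpm3 and Pdgfrl each had 0 and 1 UMIs in the R403Q-CD libraries. Members here numbered 28 to 65 nuclei per library, and how the number of nuclei bears on the calls was not tested.

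Mutant hearts with and without empagliflozin were compared next. With all members, 5 genes were higher (0.0946%) and 42 lower (0.795%) in R403Q-EMPA, and without pericyte-marked nuclei 0 were higher and 0 lower by edgeR, with 299 at an unadjusted p under 0.05 and 1 called by DESeq2. The counts with all members depend on single libraries: they were 55 and 77 without WT-CD replicate 1 and 57 and 75 without WT-CD replicate 2, which are not in this contrast but share its estimate of spread. They were 1 and 24 without R403Q-CD replicate 1, 17 and 24 without R403Q-EMPA replicate 1 and 28 and 80 without R403Q-EMPA replicate 2. Without pericyte-marked nuclei they were 16 and 5 without R403Q-EMPA replicate 1, 10 and 4 without R403Q-EMPA replicate 2, 10 and 6 without either WT-CD library, and 0 and 0 to 1 without either R403Q-CD library. The sum of the 9 pericyte markers in members was 2893 and 3592 CPM in WT-CD, 2815 and 2139 CPM in R403Q-CD, and 539 and 739 CPM in R403Q-EMPA. Of the 42 lower genes, 14 were still abundant enough to test without the pericyte-marked nuclei. Their median log2 fold change went from -1.72 to -0.34, and 6 of them were then above 0. Lrfn2, Lrrc4c, Ntm, Mdga2 and Ano1 led the lower genes, with -5.71 to -3.74. Mdga2 was at 449 and 603 CPM in WT-CD, 328 and 503 CPM in R403Q-CD, and 24.1 and 39.1 CPM in R403Q-EMPA.

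The 5 higher genes went the same way without pericyte-marked nuclei but were no longer called. Spp1 (osteopontin), a matrix cytokine, had 0 UMIs in members of all 4 WT-CD and R403Q-CD libraries, and 106 and 19 UMIs in R403Q-EMPA (77.3 and 92.8 CPM). Against a floor of 3 UMIs over the group, this was at least 9.24-fold higher than in R403Q-CD and at least 10.7-fold higher than in WT-CD. Leaving out the pericyte-marked nuclei kept the same UMIs, with an adjusted p of 0.20 against 0.011. In the other fibroblast nuclei Spp1 was at 7.59 and 0.215 CPM in R403Q-CD against 8.97 and 0.196 CPM in R403Q-EMPA. Its log2 fold change there was 0.26 (edgeR adjusted p = 0.96). Nppa, the atrial natriuretic peptide of heart muscle cells, was at 4.44 and 29.8 CPM, 58.8 and 30.6 CPM, and 341 and 117 CPM (2.60 ± 0.56 against R403Q-CD). It was also at 259.6 and 50.3 CPM in the other fibroblast nuclei of R403Q-EMPA, against 46.4 and 34.2 CPM in R403Q-CD, and the 12 cardiomyocyte markers together held 1305 to 2156 CPM in members of every library. The part of muscle cell RNA in the Nppa values was not tested.

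Mgp, an inhibitor of calcification, was at 2354 and 955 CPM in WT-CD, 580 and 998 CPM in R403Q-CD and 3493 and 2849 CPM in R403Q-EMPA members. The log2 fold change against R403Q-CD was 1.99 ± 0.37, and 1.72 ± 0.36 (adjusted p = 0.20) without pericyte-marked nuclei. Hsp90b1, a chaperone of the endoplasmic reticulum, was at 101 and 171 against 382 and 371 CPM (1.41 ± 0.31). In the other fibroblast nuclei Hsp90b1 had 1.33 (adjusted p = 0.048) in this contrast. Of 23 tested endoplasmic reticulum genes Hsp90b1 alone was called in members, with a list median log2 fold change of 0.78 (0.42 without pericyte-marked nuclei) beside 0.00 over all genes. Of 10 cytosolic heat shock genes none was called, with a median of 0.78 (0.79). In the other fibroblast nuclei, where 0.188% of genes were higher, 6 of 32 endoplasmic reticulum genes (median 0.62) and 7 of 15 heat shock genes (median 1.20) were higher and none lower. Calls of the higher genes were lost without single libraries: Nppa, Mgp and Hsp90b1 had edgeR adjusted p of 0.069, 0.23 and 0.32 without R403Q-CD replicate 1. Without R403Q-CD replicate 2, Spp1, Nppa and Hsp90b1 had 0.098, 0.31 and 0.056, and without R403Q-EMPA replicate 1 they had 0.26, 0.64 and 0.11.

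**Figure D5:**
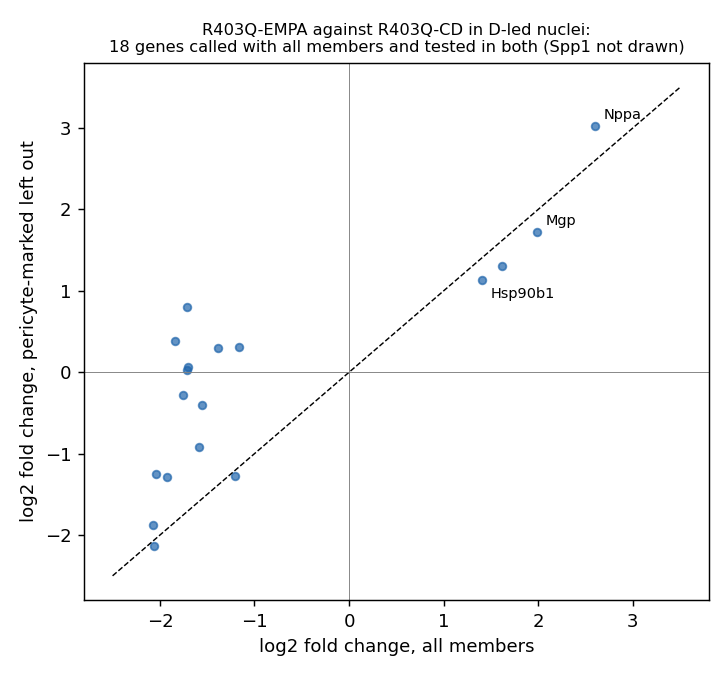
Log2 fold changes of R403Q-EMPA against R403Q-CD are drawn with all members (horizontal) and without pericyte-marked nuclei (vertical), for 18 of the 19 genes, among the 47 called, that could be tested in both fits (Spp1 is not drawn). Of the 14 lower genes, 12 are smaller in size without pericyte-marked nuclei and 6 lie above 0 on the vertical axis, and Nppa, Mgp and Hsp90b1 lie close to the line.

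R403Q-EMPA against WT-CD shares the R403Q-EMPA libraries with the comparison above. With all members, 25 genes were higher (0.473%) and 111 lower (2.10%), or 2.57% in all, beside 0.459% higher and 0.427% lower in the other fibroblast nuclei. Without WT-CD replicate 1 there were 67 higher, and without R403Q-EMPA replicate 1 there were 65 lower. Of 10 heat shock genes 3 were higher in members (median 0.96) and none without pericyte-marked nuclei (0.73), and 11 of 15 were higher in the other fibroblast nuclei (1.57). Without pericyte-marked nuclei 1 was higher (0.0218%) and 5 lower (0.109%), and 1 to 12 and 9 to 22 with 1 library left out as well. The higher gene was Nppa (4.08 ± 0.69), which had 3.96 (adjusted p = 0.029) in the other fibroblast nuclei too. Dpyd, an enzyme of pyrimidine breakdown, was at 298 and 198 CPM in WT-CD, 128 and 107 CPM in R403Q-CD, and 29.8 and 35.4 CPM in R403Q-EMPA (-3.00 ± 0.36, adjusted p = 0.0034). Hmcn2, a matrix protein of the hemicentin family, was at 441 and 627, 197 and 203, and 78.9 and 142 CPM (-2.42 ± 0.32, adjusted p = 0.0067). In both genes the R403Q-CD values lay between the other groups. Arhgef3, Plekha6 and Col4a4, a chain of basement membrane collagen, had -1.85 ± 0.31, -1.66 ± 0.28 and -1.48 ± 0.26. Plekha6 was also lower in the other fibroblast nuclei (-1.03, adjusted p = 0.012).

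Whether the groups differed more in members than in the other fibroblast nuclei was tested as an interaction. Between mutants and wild types on the control diet, 11 of 14381 genes were called (0.0765%), 2 higher (0.0139%) and 9 lower (0.0626%), and DESeq2 called 0. Without pericyte-marked nuclei 14 were called (0.0998%), 4 higher (0.0285%) and 10 lower (0.0713%). With 1 library left out there were 1 to 4 higher and 4 to 13 lower with all members. Col12a1 had an interaction of 3.22 ± 0.67 on the log2 scale (3.15 without pericyte-marked nuclei), with 5.25 and 5.65 against 3.07 and 4.38 CPM in the other fibroblast nuclei. Xkr4 had 1.88 ± 0.34 (1.78). By edgeR's adjusted p, Col12a1 was not called without WT-CD replicate 2 (0.14), R403Q-CD replicate 1 (0.35) or R403Q-EMPA replicate 1 (0.085), nor Xkr4 without WT-CD replicate 2 (0.11) or R403Q-CD replicate 2 (0.055). With empagliflozin against without it in mutants, 30 genes were higher (0.209%) and 44 lower (0.306%), 74 in all (0.515%). These counts were 20 and 7 without R403Q-EMPA replicate 1, 13 and 31 without R403Q-EMPA replicate 2, 25 and 22 without R403Q-CD replicate 1, and 19 and 29 without R403Q-CD replicate 2. Without pericyte-marked nuclei 11 were higher (0.0784%) and 5 lower (0.0356%), or 0.114% in all, and 7 to 16 and 2 to 8 with 1 library left out as well. DESeq2 called 2 and 15 with all members, and 2 and 0 without pericyte-marked nuclei, so that the lower genes below rest on edgeR. C3, the central complement factor, was at 111 and 93.5 CPM in WT-CD members, 232 and 195 CPM in R403Q-CD and 175 and 30.5 CPM in R403Q-EMPA without pericyte-marked nuclei. In the other fibroblast nuclei C3 was at 634 and 264 CPM in R403Q-EMPA against 171 and 209.8 CPM in R403Q-CD, and the interaction was -2.03 ± 0.33 (adjusted p = 5.2e-06). Outside the members C3 was above both R403Q-CD libraries in both R403Q-EMPA libraries, and inside them it was below both. Piezo2 was at 324 and 298 CPM in R403Q-CD members and 565 and 402 CPM in R403Q-EMPA members. The R403Q-EMPA values were the higher ones, but 0 of 4584 genes were called in members for this contrast without pericyte-marked nuclei. The interaction of Piezo2 was -1.63 ± 0.33 (adjusted p = 0.0021), with 5.27 and 11.8 CPM against 90.3 and 16.3 CPM in the other fibroblast nuclei. Adamtsl2, a matrix protein that binds microfibrils, had -2.07 ± 0.43, with 39.4 and 30.0 CPM against 149.6 and 103 CPM in the other fibroblast nuclei. Esrrg, an oestrogen-related receptor of energy metabolism, had 2.92 ± 0.55, with 43.1 and 356 CPM in R403Q-EMPA against 11.6 and 37.9 CPM in R403Q-CD. The R403Q-CD values of Esrrg rested on 1 and 7 UMIs. WT-CD members were at 111 and 162 CPM, so that R403Q-EMPA replicate 1 was below both WT-CD libraries. All 4 genes were called with all members too.

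Members had a median of 2.16% of UMIs from mitochondrial genes, against 2.38% in the other fibroblast nuclei. Predicted doublets were 7.69% and 8.11% of members in WT-CD, against 3.49% and 1.58% of the other fibroblast nuclei, and 0% to 3.57% of members in the other 4 libraries. The epicardial markers summed to at most 39.3 CPM in members and the adipocyte markers to at most 11.8 CPM, with Adipoq, Plin1, Cidec and Lep at 0. Myeloid markers held 963 CPM in members of WT-CD replicate 1 and 195 to 462 CPM in the other libraries. Lymphoid markers, with Cd3e, Cd79b and Ms4a1 at 0, held 1982 to 3951 CPM in members against 1770 to 2385 CPM in the others and were higher in members in every library. Without pericyte-marked nuclei they were at 1431 and 1766 CPM in WT-CD members, 2894 and 3394 CPM in R403Q-CD and 2254 and 2233 CPM in R403Q-EMPA, and no longer above the others in WT-CD. Nearly all of this sum was Ebf1, a transcription factor of B cells that fibroblasts also express, with 1323 to 3394 CPM in these members. Endocardial markers held 221 to 460 CPM in members against 175 to 215 CPM. The part of endocardial or lymphoid RNA in the results was not tested. Of the barcodes kept, 261 occurred in more than 1 library, among them those of 11 members, and no barcode was a member in more than 1 library.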

How the data were processed

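The authors isolated nuclei from frozen left ventricle for droplet libraries. They deposited raw UMI counts per gene and nucleus, 1 filtered matrix a library, without normalisation. The submitters' processing notes name Cell Ranger 8.0.1 and GRCm39. The labels give a start of the diet at 9 to 10 weeks and an age of 12 weeks, and a treatment period longer than the time between them, so that the length of treatment is not given here.

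Counts were summed per library and state, since nuclei of 1 library are not replicates, and library sizes kept all genes. The quasi-likelihood test of edgeR 4.0.16 in R 4.3.3 was used after filterByExpr and TMM scaling, with Benjamini-Hochberg adjustment over all genes tested. Members and other nuclei were compared with the library as a block. The group fits held the members of all 6 libraries, and the interaction fits held both states. The 29 genes of the rules stayed out of the tests. DESeq2 1.42.0 was an alternative, and doublets were predicted with scrublet in scanpy 1.11.5 and kept in the main fits. The fits were tested on simulated data. CPM by library use the TMM-scaled library sizes of the fit they belong to, and those of the D genes and cell type markers the sizes of the fit of members against other nuclei. CPM were compared between nuclei for 1 gene at a time and not between genes. With n = 2 libraries per group, a p-value sets a difference against the spread between libraries. The labels do not say whether the libraries of a group came from separate hearts.

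Members and gene lists were chosen with earlier results of these data known, as was the comparison of states. List genes could be named whatever their result. Beyond these, the 15 highest and 10 lowest called genes of the paired comparison were named if they moved the same way in every library and had at least 50 CPM in the higher state, 3 at each end against A-, B- and C-led nuclei, and 5 at each end in group and interaction fits, if called with groups apart, or the 5 with the smallest p if none was called. The pericyte limit was added after seeing the data. A few genes that the rule names are not reported here.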

Additional observations from a re-analysis of the deposited data

Results flagged for a closer look

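The tests of whether 2 groups differed more in D-led nuclei than in other fibroblast nuclei called 11 genes for R403Q-CD against WT-CD and 74 for R403Q-EMPA against R403Q-CD. In the first, Col12a1 (3.22 on the log2 scale) and Xkr4 (1.88) were higher, and both were called without pericyte-marked nuclei. Tnni3k (-5.40), Trpm3 (-4.45) and F13a1 (-3.38) were lower. Tnni3k, a kinase of heart muscle cells, rested on 36 UMIs in WT-CD replicate 1 against 2 in replicate 2, and F13a1, a gene of resident macrophages, on 56 against 4. Hba-a2, a haemoglobin gene, had -2.39 with all members and -0.36 without pericyte-marked nuclei. Each of the genes named for either test lost its call with at least 1 library left out. Pdzrn4 had 21 and 9 UMIs in WT-CD members and 0 in both R403Q-CD libraries (adjusted p = 0.042).

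With empagliflozin against without it in mutants, genes with 0 UMIs in R403Q-CD members were Pdzrn4 (49 and 69 UMIs in R403Q-EMPA, adjusted p = 0.0054), Spp1 (106 and 19, adjusted p = 0.048) and Grip1 (34 and 28, adjusted p = 0.00057). For Pdzrn4 and Spp1 the call was lost without pericyte-marked nuclei (adjusted p = 0.061 and 0.27), and for Grip1 it was kept (0.0091). Reln had 5.21, with 42 and 0 UMIs for the WT-CD libraries, 1 and 0 for R403Q-CD and 105 and 16 for R403Q-EMPA, and Kirrel3 had 4.78. Without pericyte-marked nuclei the call of Reln was lost (adjusted p = 0.083) and that of Kirrel3 was kept (0.0011). Cfap54 (-4.38), Lrfn2 (-4.06), Ntm (-3.21), Gcnt2 (-3.07) and Ano1 (-2.97) were lower with all members, and none of these 5 was called without pericyte-marked nuclei, where Ano1 had -0.09. The sum of pericyte markers in members was 2815 and 2139 CPM in R403Q-CD and 539 and 739 CPM in R403Q-EMPA.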

How the results depend on the processing

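Between members and other fibroblast nuclei, 90 named genes gave 1439 values under alternatives, of which 1420 kept direction and call, 16 lost the call and 3 turned: Mylk (-0.42, without pericyte-marked nuclei in DESeq2) and Pde8b (-0.17, and -0.13 in DESeq2). Lower genes were 389 without pericyte-marked nuclei in DESeq2. Leaving out 1 library, with or without pericyte-marked nuclei, gave 397 to 554 higher genes, the lowest without R403Q-EMPA replicate 1, and 493 to 653 lower genes.

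For R403Q-CD against WT-CD the counts higher and lower were 2 and 10 without a filter on low counts and 1 higher without the mitochondrial filter. With 1 library left out they were 0 to 5 and 0 to 13, the latter without WT-CD replicate 2. For R403Q-EMPA against R403Q-CD the higher count was 1 in DESeq2, 65 without a filter on low counts, 10 without the mitochondrial filter or without doublets, 3 with at least 2000 UMIs or with no UMI of Pecam1, Cdh5 and Rgs5, and 0 without pericyte-marked nuclei (1 in DESeq2). The lower count was 88 without a filter, 15 with at least 3 D UMIs, 8 with no UMI of those 3 genes and 0 without pericyte-marked nuclei (0 in DESeq2). With 1 library left out they were 0 to 57 and 0 to 80: all members gave 55 and 77 without WT-CD replicate 1, 57 and 75 without WT-CD replicate 2, 1 and 24 without R403Q-CD replicate 1, 17 and 24 without R403Q-EMPA replicate 1, and 28 and 80 without R403Q-EMPA replicate 2. Without pericyte-marked nuclei they were 0 to 16 and 0 to 6, with 10 and 6 without either WT-CD library and 16 and 5 without R403Q-EMPA replicate 1. For R403Q-EMPA against WT-CD the higher count was 10 in DESeq2, 77 without a filter, 8 with at least 3 D UMIs, 4 with no UMI of those 3 genes and 1 without pericyte-marked nuclei (2 in DESeq2), and the lower count 72, 189, 45, 19 and 5 (8 in DESeq2). With 1 library left out they were 1 to 67 and 9 to 134, with 67 higher without WT-CD replicate 1, and 29 higher and 65 lower without R403Q-EMPA replicate 1. Without pericyte-marked nuclei they were 1 to 12 and 9 to 22, with 12 higher without R403Q-EMPA replicate 1, 6 without R403Q-EMPA replicate 2 or R403Q-CD replicate 2, and 22 lower without WT-CD replicate 2. The cause was not tested.

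The interaction of R403Q-CD against WT-CD gave 0 and 0 in DESeq2, 4 higher without pericyte-marked nuclei and 0 and 0 then in DESeq2, and 1 to 5 and 4 to 14 with 1 library left out. That of R403Q-EMPA against R403Q-CD gave 2 and 15 in DESeq2, 15 and 15 with at least 3 D UMIs, 11 and 5 without pericyte-marked nuclei and then 2 and 0 in DESeq2, and 7 to 31 and 2 to 42 with 1 library left out, where R403Q-EMPA replicate 1 took the lower count to 7 and replicate 2 the higher count to 13. Without pericyte-marked nuclei the higher count was 12 without either WT-CD library or R403Q-EMPA replicate 1. A lone library was taken to vary like the other groups.

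The mean share in WT-CD was 1.02% with at least 3 D UMIs, 2.38% with at least 1, 0.924% without pericyte-marked nuclei, and 0.457% and 0.248% thinned to 1000 and 500 UMIs, and in R403Q-CD 2.49% with at least 1 D UMI and 0.257% at 500 UMIs. In R403Q-EMPA it was 5.13% thinned to 1000 and 2.82% thinned to 500 UMIs, from 6.56% at 1500. Single libraries gave 1.34% to 1.57%, 1.09% to 1.89% and 2.76% to 14.4%. No fold change without pericyte-marked nuclei was given, only UMIs or an adjusted p, where a group then held 0 UMIs (Gcnt2, Grip1, Kirrel3, Lrfn2, Ntm, Pdzrn4, Spp1, Tnni3k). No paired analysis was possible because, between groups, the labels give no numbers that pair libraries. Without the library block 508 genes were higher and 517 lower. How the number of members, 28 to 65 per library outside R403Q-EMPA replicate 1, bears on the calls was not tested.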
